A study of Mus musculus with 24 samples.

Results

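RNA was compared between group 2 innate lymphoid cells (ILC2) and CD4 T cells without NMUR1 (NMUR1- cells) that had been sorted from the same inflamed colons. The comparison took every library whose label gave either population, 8 of each and 1 of each per mouse, which is 16 of the 24 libraries of the series. All animals were Nmur1 iCre-eGFP mice, in which eGFP marks cells that use the gene for the neuromedin U receptor NMUR1. They were exposed to 3% dextran sulfate sodium (DSS) for 5 days, a treatment that damages the lining of the colon, and were then given water for 3 days. Over this time mice 1 to 4 were injected intraperitoneally with neuromedin U (NMU) every other day, and mice 5 to 8 in the same way with phosphate-buffered saline (PBS). The sample labels thus name 4 mice per treatment, where the design text counts 3. No animal without DSS entered the comparison, and the sources used here give neither the age nor the sex of the mice. ILC2 were gated as eGFP+ CD45+ Lin- CD90.2+ CD127+ KLRG1+ cells, with the antibodies of Lin not listed, and the T cells as eGFP- CD45+ CD3+ CD5+ CD4+ cells. Both are mixtures of cells: the T cell gate in particular holds effector, memory and regulatory cells together, and in such bulk samples fewer cells of a type and less RNA per cell cannot be told apart.

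ILC2 are tissue lymphocytes without an antigen receptor. They are switched on by alarm cytokines from epithelium and stroma (IL-33, IL-25, TSLP), by lipid mediators and by neuropeptides such as NMU, and they answer with type 2 cytokines and with the tissue repair factor amphiregulin. GATA3 is the transcription factor that both ILC2 and type 2 helper T cells depend on. CD4 T cells instead read peptide antigen through the T cell receptor, CD3 and the kinases LCK and ZAP70, take a second signal from CD28 family members, and divide into helper and FOXP3+ regulatory cells. The comparison therefore sets an innate cell beside adaptive cells that share its tissue, its inflammation and part of its cytokine output.

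The ILC2 libraries held 8485266 to 13064665 counts in total, and the NMUR1- libraries 11273585 to 17854961. Counts were found for 10778 to 13736 genes in ILC2 libraries (median 12636) and for 14998 to 15955 in NMUR1- libraries (median 15344.5). Both measures were lower in the ILC2 library of all 8 mice (exact sign-flip permutation test, two-sided, p = 0.00781, the smallest that 8 pairs can give, adjusted p = 0.0286 over 11 library measures). The ILC2 library of mouse 1 had the fewest genes. Immunoglobulin genes took 0.0241 to 7.93% of counts in ILC2 and 0.146 to 5.58% in NMUR1- libraries (exact sign-flip permutation p = 0.766). Of 12924 genes tested, 4406 differed between the populations (edgeR quasi-likelihood test with mouse as a block, Benjamini-Hochberg adjusted p under 0.05), 1793 higher in ILC2 (13.9% of the genes tested) and 2613 higher in NMUR1- cells (20.2%). By the stricter rule of a difference significantly above 2-fold (edgeR glmTreat), 582 genes were higher in ILC2 (4.5%) and 719 in NMUR1- cells (5.56%). The libraries of the populations did not overlap at all for 1880 genes (14.5%). Below, levels are CPM (a gene's counts scaled to the same library total in every library), given as the lowest, the median and the highest of the 8 libraries of a population. A log2 difference is ILC2 minus NMUR1-, so a positive value is higher in ILC2. The median log2 difference of all genes tested was -0.21, against which the medians of gene lists are to be read.

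The sort markers followed their gates, which makes them a check of the labels and not a finding. Nmur1 (gene 14767, protein coding, GRCm38 chromosome 1, 86386242 to 86389361), the receptor gene behind the eGFP gate, stood at 179.5, 249 and 357 CPM in ILC2 and at 1.73, 3.71 and 8.27 CPM in NMUR1- cells. Cd3e, the epsilon chain of the CD3 complex, stood at 0, 6.6 and 13 CPM and 883, 985 and 1057 CPM. Cd5, also in the T cell gate, was at 0, 0 and 3.33 CPM and 404, 498 and 556 CPM. No library of either population reached the range of the other for these 3 genes. Klrg1, the lectin receptor of the ILC2 gate, was at 742, 1194 and 1820 CPM and 33.6, 110.4 and 196 CPM. The genes behind CD127 and CD90, both in the ILC2 gate, differed in opposite directions: Il7r was higher in ILC2 (log2 difference of 1.54) and Thy1 in NMUR1- cells (-2.27), while Ptprc, the gene for CD45 in both gates, was lower in ILC2 without passing the 2-fold rule (-0.66). Of 20 genes of the CD3 complex, coreceptors and CD2 family, the gate genes among them, 13 were higher in NMUR1- cells and 2 in ILC2 (median log2 difference of -5.24).

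Gata3 (gene 14462, GRCm38 chromosome 2, 9857078 to 9887953), which no gate used, was at 4543, 6288 and 6942 CPM in ILC2 and at 314, 536 and 705 CPM in NMUR1- cells (log2 difference of 3.56, SE 0.15, adjusted p = 3.34e-08). Every ILC2 library lay above every T cell library, and no T cell library was near 0. RNA of 2 type 2 cytokines was near 0 in T cells. Il5, the eosinophil growth factor, was at 808, 1428 and 1988 CPM in ILC2 and at 0, 0.0782 and 0.777 CPM in NMUR1- cells, where 26 counts were found over the 8 libraries. Il13, which drives goblet cells and smooth muscle, was at 127, 174 and 553 CPM and 0, 0.309 and 0.638 CPM (log2 difference of 9.90, SE 0.48, adjusted p = 1.75e-07). Of the 24 tested of 27 genes listed as ILC2 and type 2 lineage factors and products, 18 were higher in ILC2, 1 was lower and 5 did not pass, with a median log2 difference of 3.47.

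The promoters of 3 genes that the sort did not use and that separated the populations are shown as RefSeq gives them for GRCm38.p6, from 250 bases before to 50 bases after the first listed start site. Gata3 and Il13 were higher in ILC2, and Ccl20, the ligand of CCR6, had 0 counts in every ILC2 library. Capitals mark the motifs searched on both strands: AGATAA of the GATA family, CAGCTG, an E-box of E proteins, and TGTGGT of the RUNX family.
Gata3, chr2:9878551-9878850, minus strand: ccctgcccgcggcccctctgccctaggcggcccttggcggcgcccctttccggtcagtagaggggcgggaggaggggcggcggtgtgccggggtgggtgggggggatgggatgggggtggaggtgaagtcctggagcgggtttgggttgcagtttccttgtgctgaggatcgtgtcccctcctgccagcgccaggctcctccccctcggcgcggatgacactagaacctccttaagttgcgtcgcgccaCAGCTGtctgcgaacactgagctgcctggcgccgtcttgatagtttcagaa
Il13, chr11:53634653-53634952, minus strand: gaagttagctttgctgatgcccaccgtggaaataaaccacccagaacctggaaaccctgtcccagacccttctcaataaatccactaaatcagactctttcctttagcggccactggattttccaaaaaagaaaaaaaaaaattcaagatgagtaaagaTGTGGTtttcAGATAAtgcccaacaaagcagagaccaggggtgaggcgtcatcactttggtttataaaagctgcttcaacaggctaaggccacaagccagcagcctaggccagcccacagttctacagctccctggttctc
Ccl20, chr1:83116516-83116815, plus strand: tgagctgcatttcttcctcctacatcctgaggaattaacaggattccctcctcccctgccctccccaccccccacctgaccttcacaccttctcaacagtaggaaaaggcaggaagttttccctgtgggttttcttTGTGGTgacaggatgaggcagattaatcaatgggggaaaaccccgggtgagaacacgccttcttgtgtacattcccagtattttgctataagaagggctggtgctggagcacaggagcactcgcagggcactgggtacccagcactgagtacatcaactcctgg
The Gata3 window held CAGCTG, the Il13 window AGATAA and TGTGGT, and the Ccl20 window TGTGGT. These 3 are not typical, since the windows of Il5, Rxrg, Il21 and Foxp3, among others, held no motif. Sort genes, Gata3 and genes picked by size over all genes had 9 windows past the 2-fold rule on the ILC2 side. On the T cell side they had 7. AGATAA was in 1 and 0 of these, CAGCTG in 1 and 0, and TGTGGT in 3 and 1. Windows were found for 9880 of the 12924 genes tested, and 6.43% of them held AGATAA, 14.9% CAGCTG and 12.9% TGTGGT. Among the windows of genes past the 2-fold rule, AGATAA was in 38 of 415 (9.16%) for genes higher in ILC2 and in 35 of 464 (7.54%) for genes higher in NMUR1- cells. CAGCTG was in 18.1% and 19.0% of them, and TGTGGT in 11.8% and 14.4%. A match is a string of letters in a short window and was not tied to binding.

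Further type 2 genes were higher in ILC2 beside Gata3. Calca, which encodes the neuropeptide CGRP, was at 158.3, 353 and 722 CPM in ILC2 and 0.259, 1.93 and 3.37 CPM in NMUR1- cells (log2 difference of 7.66, SE 0.46, adjusted p = 1.21e-06). Rxrg, a retinoid X receptor, was at 56.9, 107 and 165 CPM in ILC2, and only 2 counts were found over the 8 T cell libraries. Areg, the gene for amphiregulin, was higher in ILC2 in 8 of 8 mice (222, 359.9 and 805 CPM against 15.1, 28.1 and 94.4 CPM, log2 difference of 3.38, SE 0.40, adjusted p = 0.00016), and no T cell library was at 0. Id2, the inhibitor of E proteins that all innate lymphoid cells need, was higher in ILC2 at 1088, 1366 and 2057 CPM against 272, 397 and 585 CPM (log2 difference of 1.77, SE 0.13, adjusted p = 1.96e-06), whereas its relative Id3, listed with the T cell factors, did not pass (log2 difference of -1.34, SE 0.66). Ets1, a factor that T cells and innate lymphoid cells share, was the 1 member of the type 2 list that was lower, by less than 2-fold (log2 difference of -0.76). Bcl11b, a T lineage factor that ILC2 keep, stood at 61.6, 84.9 and 179 CPM in ILC2 and 74.2, 106 and 119 CPM in T cells, an overlap on both sides (adjusted p = 0.712).

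T cell identity genes were the mirror image. Sh2d1a, the adaptor SAP that T cells use to signal from SLAM receptors, had 0 counts in all 8 ILC2 libraries and 74.8, 101 and 166 CPM in NMUR1- cells, at least 3138-fold higher when 3 counts over the 8 libraries are taken as the floor. Il21, the cytokine of follicular helper cells, also had 0 counts in ILC2 and was at 11.9, 20.2 and 45.7 CPM in NMUR1- cells, at least 643-fold higher. Ccl20 was at 2.42, 17.9 and 40.8 CPM in NMUR1- cells and at least 632-fold higher. Foxp3, the factor of regulatory T cells, was at 67.4, 157 and 213 CPM in NMUR1- cells, and 12 counts were found over the 8 ILC2 libraries. Of 31 CD4 T cell factors and products, 19 were higher in NMUR1- cells, 4 in ILC2 and 8 did not pass (median log2 difference of -1.37). Il22, an epithelial repair cytokine of helper T cells and of other innate cells, was at 33.7, 94.2 and 652 CPM in NMUR1- cells and at 0, 2.53 and 22.2 CPM in ILC2 (log2 difference of -5.90, SE 1.04, adjusted p = 0.00291). The 4 members higher in ILC2 were Runx3, a factor of cytotoxic and innate lineages (log2 difference of 0.88), Ikzf3, the zinc finger factor Aiolos (1555, 1765 and 2333 CPM against 368, 467 and 766 CPM), Tox (log2 difference of 1.64, SE 0.30, adjusted p = 0.00222) and Il2 (log2 difference of 2.65). Il2 is listed with the type 2 products too, since both cell types make this growth factor.

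**Figure D1:**
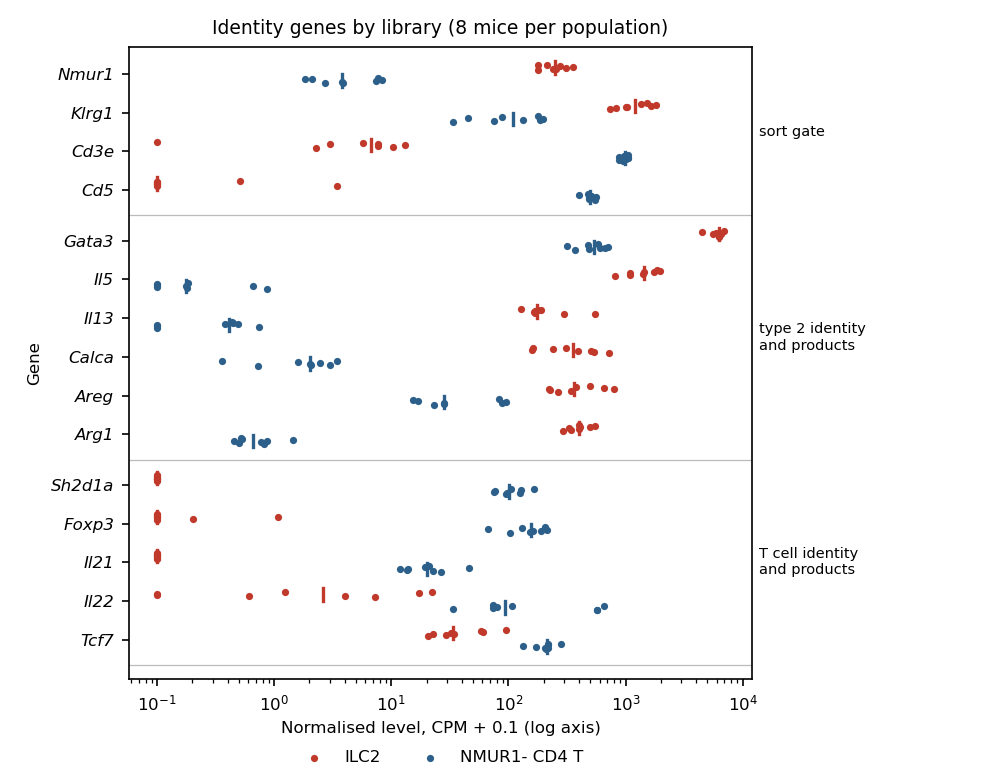
Levels of 15 genes in each library, as CPM + 0.1 on a log axis. Red points are the 8 ILC2 libraries, blue points the 8 NMUR1- CD4 T libraries, and vertical bars the medians. Nmur1, Klrg1, Gata3, Il5, Il13, Calca, Areg and Arg1 lay higher in every ILC2 library, and Cd3e, Cd5, Sh2d1a, Foxp3, Il21, Il22 and Tcf7 in every T cell library.

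Across the 35 lists of receptor, signaling, lineage, metabolic and ribosomal genes, the share that differed was uneven. Among surface genes 267 of 301 listed were tested, of which 78 were higher in ILC2 and 84 in NMUR1- cells. Among signaling genes it was 114 and 93 of 363 tested, and among metabolic genes 73 and 112 of 468. The stricter 2-fold rule called 45 and 58 surface genes, 48 and 25 signaling genes, and 20 and 12 metabolic genes. Of all genes tested, the first rule called 13.9% and 20.2%, and the 2-fold rule 4.5% and 5.56%. By the first rule the metabolic shares were close to those of all genes, and by the 2-fold rule they were not above them. The surface genes include genes of the sort gates.

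**Figure D2:**
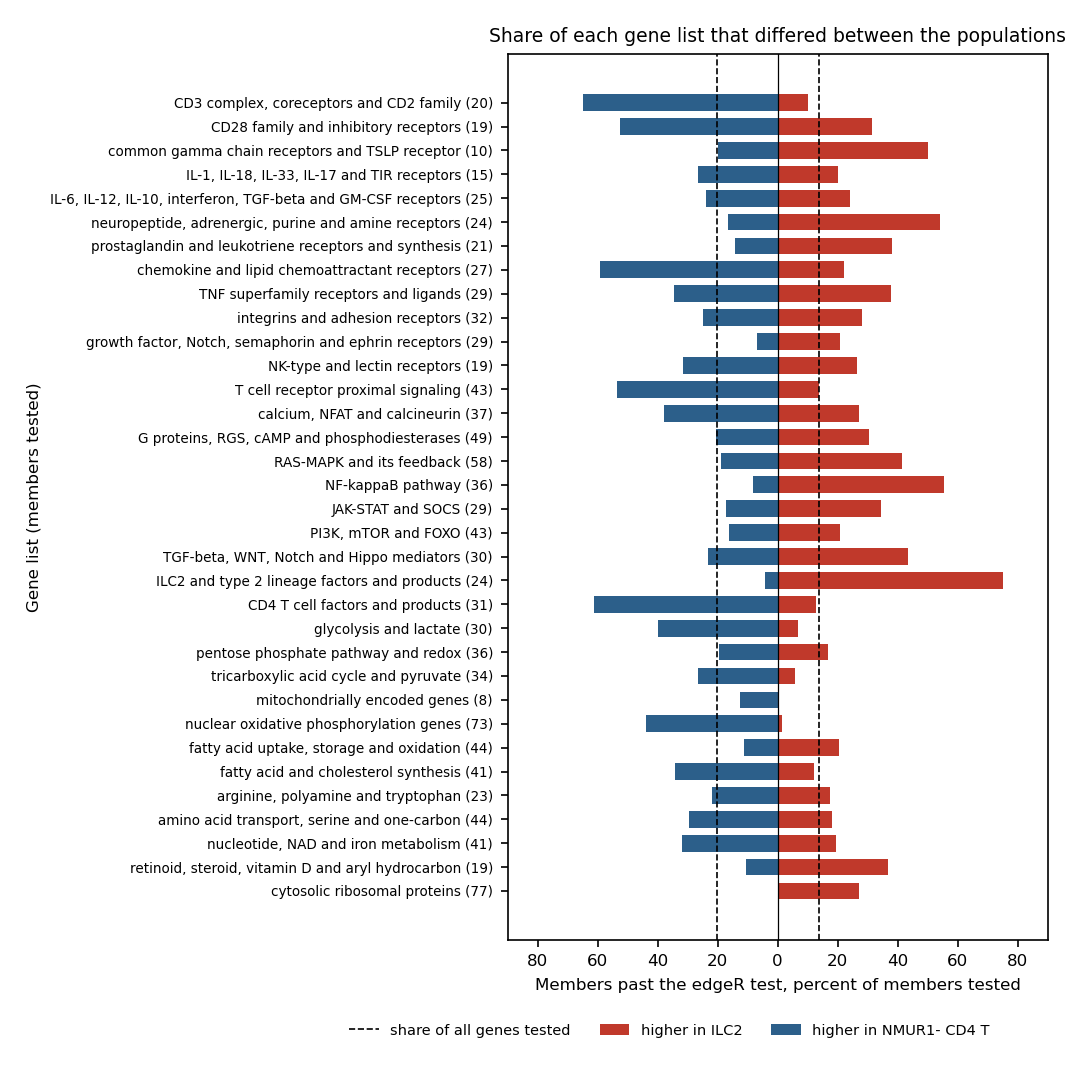
For all but 1 of these lists, the percent of tested members that were higher in ILC2 (red, to the right) or higher in NMUR1- CD4 T cells (blue, to the left) by edgeR at an adjusted p under 0.05, with the number tested in parentheses. Dashed lines are the shares of all 12924 genes, 13.9% and 20.2%. The type 2 lineage, NF-kappaB and neuropeptide receptor lists reached furthest to the right, and the CD3, CD4 T cell factor and chemokine receptor lists furthest to the left.

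Receptors for alarm and growth cytokines were the first group of surface genes. Il17rb, the IL-25 receptor subunit, was at 273, 646 and 935 CPM in ILC2 and at 0.311, 1.14 and 3.01 CPM in NMUR1- cells (log2 difference of 8.79, SE 0.58, adjusted p = 4.46e-06). Il9r, through which IL-9 keeps ILC2 alive, was at 86.2, 108 and 148 CPM and 1.97, 5.21 and 12.1 CPM (log2 difference of 4.37, SE 0.35, adjusted p = 4.85e-06). Il1rl1, the IL-33 receptor ST2, was at 264, 391.7 and 525 CPM and 36.5, 61.6 and 86.9 CPM (log2 difference of 2.80, SE 0.19, adjusted p = 9.41e-07). For all 3 every ILC2 library lay above every T cell library. IL-25 receptor RNA was near 0 in T cells, while ST2 RNA was found in every T cell library. Il2ra, the high-affinity IL-2 receptor chain that regulatory T cells also carry, was higher in ILC2 by a little over 2-fold (839, 1010 and 1307 CPM against 375, 466 and 617 CPM, log2 difference of 1.09, SE 0.15, adjusted p = 0.000175). Il2rb and Il4ra did not pass (log2 differences of 0.43 and 0.29, adjusted p = 0.0566 and 0.338, edgeR). Il18r1, the sister gene of Il1rl1 and receptor for IL-18, was slightly lower in ILC2 (log2 difference of -0.88, SE 0.20).

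Among receptors for IL-10, interferon and the TGF-beta family, Il10ra, the ligand-binding chain for IL-10, was at 78.2, 101 and 145.8 CPM in ILC2 and 5.58, 10.6 and 19 CPM in NMUR1- cells (log2 difference of 3.30, SE 0.17, adjusted p = 1.52e-07). Acvr2a, a receptor for activins, was at 30.9, 62 and 99.3 CPM and 5.9, 9.88 and 20.9 CPM (log2 difference of 2.40, SE 0.31, adjusted p = 0.00014), and Ifngr2, the signaling chain of the interferon-gamma receptor, was also higher in ILC2 (log2 difference of 1.49, SE 0.13). Tgfbr2 did not differ by the test at 145, 179 and 213 CPM and 123, 160.1 and 169 CPM (adjusted p = 0.161, edgeR).

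Il21r, the receptor for IL-21, was lower in ILC2. It was at 14.6, 47.6 and 87.8 CPM in ILC2 and 488, 789.8 and 1264 CPM in NMUR1- cells (log2 difference of -4.28, SE 0.42, adjusted p = 4.31e-05). Il12rb2, the inducible IL-12 receptor chain of type 1 cells, was at 0, 0.0444 and 1.61 CPM and 71.2, 122 and 182 CPM (log2 difference of -9.11, SE 0.64, adjusted p = 3.05e-06), with 24 counts over the 8 ILC2 libraries. Il12rb1, its shared partner chain, did not pass (log2 difference of 0.36, adjusted p = 0.115, edgeR). Il23r and Il1r1, which type 17 cells use, were at 29.8, 77.4 and 150 CPM and 28.8, 58.6 and 146.1 CPM in NMUR1- cells, with ILC2 medians of 0 and 0.318. The ILC2 library of mouse 2 stood apart for Il23r at 18.3 CPM. Il6st and Il6ra, the subunits of the IL-6 receptor, were lower in ILC2 (log2 differences of -3.77 and -3.35), as was the IL-1 decoy receptor Il1r2 (log2 difference of -3.57, SE 0.41, adjusted p = 0.00012).

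By list, the common gamma chain and TSLP receptors had 5 of 10 members higher in ILC2 and 2 in NMUR1- cells. Among those 5 is Il7r, the gene for CD127, which the ILC2 gate used. The IL-1, IL-18, IL-33, IL-17 and Toll-related receptors had 3 and 4 of 15, and the receptors for IL-6, IL-12, IL-10, interferon, TGF-beta and GM-CSF had 6 and 6 of 25. Of all genes tested, 13.9% and 20.2% were called in these directions. The medians of the latter 2 lists were 0.11 and -0.49, and their sign changed under some alternatives, so no common direction is given for either family.

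Receptors for neuropeptides, amines and purines were the surface family with the largest share higher in ILC2 (13 of 24 tested, 4 lower, 11 further members too low to test, median log2 difference of 1.06). The list holds Nmur1 itself, which the gate used. Vipr2, a receptor for vasoactive intestinal peptide, was at 5.72, 27.8 and 57.1 CPM in ILC2 and 0.393, 0.847 and 1.81 CPM in NMUR1- cells (log2 difference of 4.86, SE 0.49, adjusted p = 2.12e-05). Ramp1 is the membrane partner that turns the calcitonin-like receptor into the CGRP receptor, and it was at 72.4, 153 and 218 CPM and 12.7, 19.4 and 28.3 CPM (log2 difference of 2.79, SE 0.19, adjusted p = 1.07e-06). Its relative Ramp3 was at 882, 1369 and 1694 CPM and 308, 456 and 634 CPM (log2 difference of 1.52, SE 0.13, adjusted p = 4.8e-06). ILC2 thus held more RNA both of the gene Calca (above) and of Ramp1, while the gene of the calcitonin-like receptor is not reported here. Gpr35, an orphan receptor of gut mucosa, was at 36.4, 61.8 and 101 CPM and 2.28, 6.3 and 9.47 CPM (log2 difference of 3.43, SE 0.32, adjusted p = 1.17e-05). Mc5r, a melanocortin receptor picked out by its size among all genes, was at 30.3, 52.3 and 88.8 CPM in ILC2, with 8 counts over the 8 T cell libraries (log2 difference of 9.33, SE 0.52, adjusted p = 2.51e-07). P2rx7, an ATP-gated ion channel, was higher in NMUR1- cells (1.41, 10.9 and 33.6 CPM in ILC2 against 44.2, 50.6 and 62.6 CPM, log2 difference of -2.41, SE 0.44, adjusted p = 0.00162).

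Lipid mediator genes showed the same lean toward ILC2, with 8 of 21 higher there and 3 in NMUR1- cells. Ptgir, the prostacyclin receptor, was at 141, 255 and 299.9 CPM in ILC2 and 1.99, 3.81 and 5.03 CPM in NMUR1- cells (log2 difference of 6.12, SE 0.21, adjusted p = 7.75e-09). Cysltr1, the cysteinyl leukotriene receptor, was at 53.1, 75.2 and 119 CPM and 6.24, 11.9 and 41 CPM (log2 difference of 2.45, SE 0.36, adjusted p = 0.000429). No library overlapped for either gene. Of the enzymes, Ptgs2, the inducible cyclooxygenase, was at 103, 166 and 298 CPM and 4.28, 7.42 and 16.5 CPM (log2 difference of 4.60, SE 0.26, adjusted p = 2.55e-07), and Alox5, which starts leukotriene synthesis, at 10.2, 19.6 and 74.1 CPM and 0, 0.52 and 0.843 CPM (log2 difference of 5.70, SE 0.73, adjusted p = 0.00013). Ptgs1, the constitutive cyclooxygenase, and Lta4h, which makes leukotriene B4, did not pass (log2 differences of -0.047 and 0.25, adjusted p = 0.962 and 0.0566, edgeR). Of the prostaglandin E2 receptors, Ptger2 was lower in ILC2 (log2 difference of -1.04, adjusted p = 0.0113, edgeR, lower in 7 of 8 mice) and Ptger4 did not pass (0.50, adjusted p = 0.0699). Ptgdr2, the prostaglandin D2 receptor CRTH2 by which ILC2 are often marked, was listed and did not reach the count minimum for testing.

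Chemokine receptors divided the populations, with 16 of 27 higher in NMUR1- cells and 6 in ILC2 (median log2 difference of -2.68). Ccr8, a receptor of type 2 and regulatory cells, was on the ILC2 side at 2085, 2494 and 3330 CPM against 94.6, 216 and 374 CPM (log2 difference of 3.61, SE 0.31, adjusted p = 1.16e-05). Gpr183, an oxysterol receptor that guides the position of cells in lymphoid tissue, was higher by less than 2-fold (0.93), and Cxcr6 likewise (0.99). Ccr6, the receptor of the T cell product Ccl20, was at 63.7, 88.2 and 124.2 CPM in NMUR1- cells, with 16 counts over the 8 ILC2 libraries. Cxcr3, which steers type 1 cells, was at 0, 6.32 and 11.4 CPM in ILC2 and 397, 484 and 568 CPM in NMUR1- cells (log2 difference of -6.84, SE 0.89, adjusted p = 0.000544). Cxcr5 of follicular helper cells and Gpr15, a homing receptor for the colon, had T cell medians of 65.3 and 101 CPM and ILC2 medians of 0 and 1.31. Ccr7, which guides cells to lymph nodes, was at 54, 123.7 and 279.8 CPM in ILC2 and 546, 717 and 1138 CPM in NMUR1- cells (log2 difference of -2.48, SE 0.23, adjusted p = 1.17e-05).

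Checkpoint genes split within the family. Of 19 CD28 family and inhibitory receptors tested, 6 were higher in ILC2 and 10 in NMUR1- cells. Among those 6 is Klrg1, which the ILC2 gate used. Pdcd1, the gene for PD-1, was at 1124, 1587 and 2183 CPM in ILC2 and 82.8, 261 and 449.6 CPM in NMUR1- cells (log2 difference of 2.72, SE 0.32, adjusted p = 0.000133). Cd200r1, an inhibitory receptor for CD200, was at 96.1, 150.2 and 206 CPM and 7.2, 18.4 and 26.7 CPM (log2 difference of 3.15, SE 0.23, adjusted p = 1.84e-06), whereas its ligand gene Cd200 was at 0, 0.0893 and 8.36 CPM and 26.8, 35.4 and 42.1 CPM (log2 difference of -5.89, SE 1.23, adjusted p = 0.00494). The receptor and the ligand were thus on opposite sides. Icosl, the ligand of ICOS, was higher in ILC2 (log2 difference of 2.42, SE 0.26). Ctla4, which takes B7 ligands away from CD28, was at 21.7, 61.2 and 264 CPM and 1385, 1624 and 1958 CPM (log2 difference of -4.78, SE 0.46, adjusted p = 5.23e-05). Tigit was at 22.7, 63.3 and 232 CPM and 638, 908 and 1292 CPM (log2 difference of -3.79, SE 0.34, adjusted p = 1.68e-05), and Lag3 was likewise lower in ILC2 (log2 difference of -4.56, SE 0.95). PD-1 RNA was thus higher in ILC2, and CTLA-4, TIGIT and LAG-3 RNA in T cells.

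In the TNF superfamily 11 of 29 genes were higher in ILC2 and 10 in NMUR1- cells, beside 13.9% and 20.2% of all genes. Genes of ligands stood on both sides. Tnfsf14, the gene for LIGHT, was at 86.5, 112 and 137 CPM and 1.69, 5.82 and 6.92 CPM (log2 difference of 4.55, SE 0.29, adjusted p = 6.43e-07). Tnfsf9 (4-1BB ligand) was at 55.6, 132 and 218 CPM and 10.1, 13.7 and 18.5 CPM (log2 difference of 3.21, SE 0.23, adjusted p = 1.82e-06), and Tnfsf4 (OX40 ligand) at 10.1, 43.6 and 90.2 CPM and 1.65, 4.7 and 7.66 CPM (log2 difference of 3.16, SE 0.42, adjusted p = 0.000161). Tnfsf10, the gene for the death ligand TRAIL, was also higher in ILC2, at 24.6, 49.2 and 74.6 CPM and 8.18, 12.2 and 24.7 CPM (log2 difference of 1.83, SE 0.26, adjusted p = 0.000273). On the T cell side stood the OX40 receptor, Tnfrsf4, at 1412, 1916 and 2405 CPM in NMUR1- cells and 7.81, 42.2 and 98.4 CPM in ILC2 (log2 difference of -5.80, SE 0.44, adjusted p = 8.26e-06), so that ligand and receptor of this pair were split between the populations. Cd40lg, by which helper cells license B cells, and Fasl, a death ligand, had log2 differences of -6.93 and -5.04 (adjusted p = 0.000583 and 1.12e-05, edgeR). Tnfrsf9, the receptor for 4-1BB ligand, did not pass (log2 difference of -0.19, with 415, 736 and 1113 CPM and 566, 792 and 1172 CPM), and its sign was positive in the NMU mice alone.

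Adhesion, growth factor and lectin receptors completed the surface genes. Integrins and adhesion receptors had 9 of 32 members higher in ILC2 and 8 in NMUR1- cells, growth factor and Notch receptors 6 and 2 of 29, and NK-type and lectin receptors 5 and 6 of 19. The shares of all genes were 13.9% and 20.2%. Ret, the receptor kinase for glial growth factors, was at 68.4, 166 and 242 CPM in ILC2 and 0.631, 0.854 and 1.69 CPM in NMUR1- cells (log2 difference of 7.31, SE 0.28, adjusted p = 1.36e-08). Kit, the stem cell factor receptor, was at 331, 459.8 and 562 CPM and 4.58, 21 and 34.3 CPM (log2 difference of 4.63, SE 0.36, adjusted p = 6.22e-06). Kit is also a mast cell and ILC3 gene, and the summed level of the mast cell and basophil list was 333 to 562 CPM in ILC2 against 6.3 to 34.5 in NMUR1- cells, nearly all of it Kit. It was higher in ILC2 in 8 of 8 mice (exact sign-flip permutation p = 0.00781, the smallest that 8 mice allow, adjusted p = 0.0286). Mcpt2, Mcpt4, Fcer1a, Ms4a2 and Tpsb2 had 0 counts in all 16 libraries. Cpa3 had 220 counts over the 8 ILC2 libraries and 17 over the 8 T cell libraries, Mcpt1 26 and 3, Mcpt8 29 and 0, and Cma1 0 and 22. The part of mast cells in the Kit difference was not tested. The summed level of the ILC3 list was 1073 to 2328 CPM in ILC2 and 1293 to 2716 in NMUR1- cells (exact sign-flip permutation p = 0.352). Most of that sum was Ltb, with medians of 1046 and 1309 CPM. Klrb1b was at 145, 269 and 314 CPM and 0.825, 3.37 and 9.6 CPM (log2 difference of 6.07, SE 0.49, adjusted p = 1.17e-05), but it belongs to a cluster of similar lectin genes whose reads the counting could mix. Cd81, a tetraspanin, and Cd69, which keeps cells in tissue, were higher in ILC2 (log2 differences of 2.90 and 1.95), in 8 of 8 mice each. Itgae (CD103) and Itga6 were higher in NMUR1- cells (log2 differences of -4.37 and -5.04), while Itga4, the alpha chain of gut homing integrin, did not pass (0.19).

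**Figure D3:**
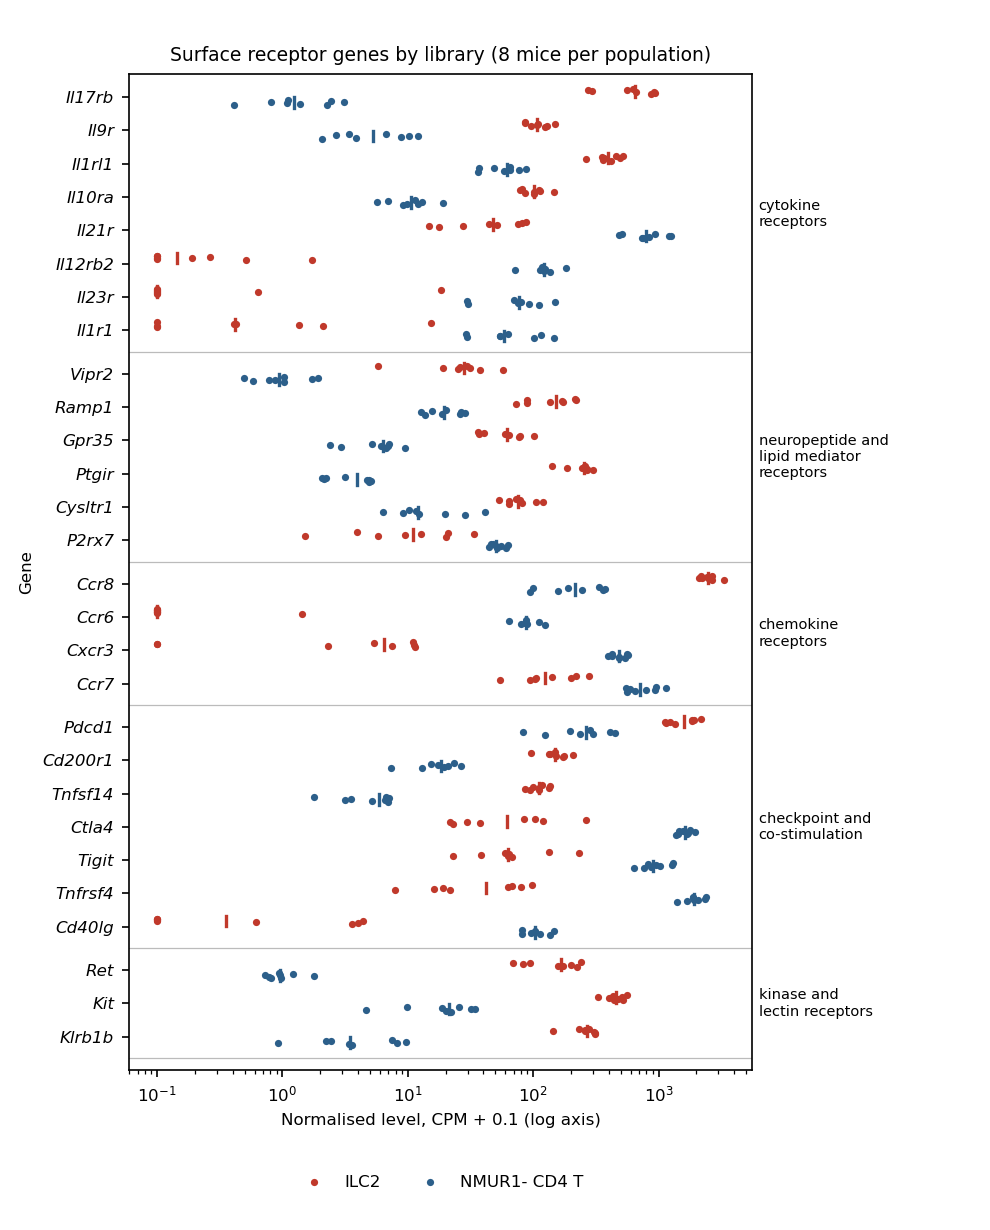
Levels of 28 surface receptor and ligand genes in each library, as CPM + 0.1 on a log axis. Red points are the 8 ILC2 libraries, blue points the 8 NMUR1- CD4 T libraries, and vertical bars the medians. Il17rb, Ptgir and Ret were close to 0 in T cells, and Il12rb2, Ccr6 and Cd40lg close to 0 in ILC2.

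Downstream of the receptors, genes of proximal T cell receptor signaling were lower in ILC2 for 23 of 43 members and higher for 6 (median log2 difference of -0.66). Trat1, an adaptor that stabilizes the receptor complex, was at 0, 1.06 and 3.85 CPM in ILC2 and 85, 101 and 147 CPM in NMUR1- cells (log2 difference of -6.86, SE 0.82, adjusted p = 0.000205). Themis, which sets signal strength during T cell selection, was at 0, 5.11 and 15 CPM and 122, 165 and 255 CPM (log2 difference of -5.23, SE 0.88, adjusted p = 0.00224). Lat, the membrane scaffold that ZAP70 phosphorylates, was at 216, 314 and 378 CPM and 1391, 1490 and 1886 CPM (log2 difference of -2.38, SE 0.13, adjusted p = 2.18e-07), whereas its B cell and myeloid relative Lat2 was at 54.1, 87.3 and 129.6 CPM and 5.66, 12.8 and 26.6 CPM (log2 difference of 2.85, SE 0.31, adjusted p = 3.74e-05). The 2 scaffolds thus differed in opposite directions. Tespa1, an inositol trisphosphate receptor partner needed in thymocytes, was also higher in ILC2 (203, 266 and 324 CPM against 38.7, 49.6 and 73.7 CPM, log2 difference of 2.40, SE 0.14, adjusted p = 4.27e-07). Sh2d2a, a T cell adaptor, did not pass (-0.28). Tespa1 and Lat2 thus lay above T cell levels in every ILC2 library, and Trat1, Themis and Lat below them.

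Of 37 calcium and NFAT genes tested, 10 were higher in ILC2 and 14 in NMUR1- cells, beside 13.9% and 20.2% of all genes. The 2-fold rule called 1 in each direction. The store-operated channel gene Orai1 was lower in ILC2 (38.9, 56.7 and 80.2 CPM against 113, 139 and 187 CPM, log2 difference of -1.33, SE 0.18, adjusted p = 0.0002) and Orai3 was higher (log2 difference of 1.07, SE 0.17). Kcnn4, a potassium channel that sustains calcium entry, was also higher (log2 difference of 0.89). Nfatc1 and Nfatc2 were lower in ILC2 (-0.75 and -1.11).

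Among G protein genes, Rgs18, a regulator that shortens Gq and Gi signals, was at 33.4, 44.1 and 128 CPM in ILC2, and 17 counts were found over the 8 T cell libraries (log2 difference of 8.68, SE 0.74, adjusted p = 8.24e-06). Rgs2, which acts on Gq, was at 1073, 1592 and 1808 CPM and 112, 181.4 and 307 CPM (log2 difference of 3.00, SE 0.19, adjusted p = 7.02e-07). Gnaq, the Gq alpha subunit to which NMUR1 couples, was at 66.8, 169.5 and 231 CPM and 13.4, 22.2 and 29.6 CPM (log2 difference of 2.65, SE 0.19, adjusted p = 1.61e-06). All 8 mice had more RNA of these 3 genes in ILC2 than in T cells. The cAMP phosphodiesterases Pde4d and Pde2a were lower in ILC2 (log2 difference of -1.45, SE 0.10, adjusted p = 1.21e-06 for Pde4d, a log2 difference of -3.71 for Pde2a). Over the list 15 of 49 members were higher in ILC2 and 10 in NMUR1- cells, with a median near 0 (-0.051).

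Genes of the RAS-MAPK cascade leaned toward ILC2. Of 58 members 24 were higher in ILC2 and 11 in NMUR1- cells, and by the 2-fold rule 16 and 4. Those named on the ILC2 side were feedback inhibitors and early response factors. Spry2, which dampens receptor kinase signals, was at 15.6, 44.3 and 79.5 CPM in ILC2 and 0.173, 0.53 and 1.12 CPM in NMUR1- cells (log2 difference of 6.16, SE 0.30, adjusted p = 1.01e-07). Nr4a1, an early nuclear receptor, was at 3777, 5828 and 10060 CPM and 414, 604 and 747 CPM (log2 difference of 3.37, SE 0.16, adjusted p = 9.02e-08). Fosb and Fosl1, partners in AP-1, had log2 differences of 3.74 and 5.26, and Atf3, a stress-induced factor of the cAMP list, 4.30 (SE 0.21). Some cascade members were lower in ILC2 or did not pass: Map3k1 (log2 difference of -1.74, SE 0.21, adjusted p = 9.03e-05) and Rras2 (-2.56) were lower, and Rasgrp1 did not pass (-0.18). Dusp6, a phosphatase that ERK activity induces, was higher in ILC2 (log2 difference of 1.23, SE 0.12, adjusted p = 1.31e-05).

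The NF-kappaB pathway was the signaling list with the largest share higher in ILC2, 20 of 36 against 3 in NMUR1- cells (median log2 difference of 0.63). Several of its members are inhibitors that the pathway itself induces. Nfkbia, which encodes IkappaB-alpha, was at 4245, 5515 and 6877 CPM in ILC2 and 896, 1059 and 1151 CPM in NMUR1- cells (log2 difference of 2.46, SE 0.083, adjusted p = 7.65e-09). Nfkbid was at 381, 748 and 853 CPM and 69.6, 103 and 123 CPM, and Nfkbiz at 1271, 1958 and 2534 CPM and 329, 366 and 434 CPM (log2 differences of 2.86 and 2.40). Nfkb1, the p105 and p50 subunit, was at 436, 663.1 and 902 CPM and 132, 146.5 and 179.7 CPM (log2 difference of 2.07, SE 0.11, adjusted p = 1.88e-07), whereas Nfkb2 of the alternative branch did not pass (0.23, SE 0.21). Traf5 and Cyld were lower in ILC2 (-2.75 and -0.58).

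In the JAK-STAT list 10 of 29 genes were higher in ILC2 and 5 in NMUR1- cells. Some feedback genes that STAT5 induces were on the ILC2 side. Cish was at 278, 328 and 433 CPM against 90.4, 126 and 163 CPM (log2 difference of 1.42, SE 0.12, adjusted p = 5.84e-06, edgeR). Socs2 was at 261, 357 and 466 CPM against 55.4, 63 and 76.1 CPM (log2 difference of 2.44, SE 0.10, adjusted p = 1.76e-08, edgeR). The kinase gene Pim3 had a log2 difference of 2.49. Socs5, another suppressor of cytokine signaling, was also higher (3.01). Socs3, a feedback gene of the same family, was lower in ILC2 in all 8 mice (1.56 to 39.7 CPM against 19.9 to 73.9 CPM). Stat5a and Stat5b themselves were lower in ILC2, at 23, 30.8 and 51.7 CPM against 72, 127 and 172 CPM and 45.7, 63.2 and 114 CPM against 185, 269 and 336 CPM (log2 difference of -1.97, SE 0.22, adjusted p = 5.14e-05 for Stat5a). RNA for the transcription factor and RNA for the target genes Cish, Socs2 and Pim3 thus differed in opposite directions, while Socs3 went with the factor. The 2 STAT5 genes are close relatives that lie side by side, and reads that match both could be split between them.

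Of 30 mediators of TGF-beta, WNT, Notch and Hippo signals tested, 13 were higher in ILC2 and 7 in NMUR1- cells. Hes1, the classical Notch target, was at 560.4, 1552 and 2147 CPM in ILC2 and 3.46, 9.04 and 22.9 CPM in NMUR1- cells (log2 difference of 7.08, SE 0.28, adjusted p = 2.77e-08). Jag1, a Notch ligand, was at 39.6, 96.8 and 132 CPM and 1.55, 2.34 and 3.15 CPM (log2 difference of 5.13, SE 0.31, adjusted p = 4.67e-07), and Hey1, another target, was also higher (log2 difference of 2.52, SE 0.33, adjusted p = 0.000173). Notch1 itself did not pass (-0.64, SE 0.39), and Dtx1, a Notch target of lymphocytes, was lower in ILC2 (log2 difference of -2.08). Lef1 and Tcf7, the WNT-responsive factors of naive and memory T cells, were higher in NMUR1- cells (20.7, 33.5 and 94.5 CPM in ILC2 against 134, 214 and 282 CPM for Tcf7, log2 differences of -2.40 and -2.39). Foxo1, a factor of resting T cells, was also higher in NMUR1- cells (21.5, 31.6 and 41.4 CPM against 122, 178 and 211 CPM, log2 difference of -2.39, SE 0.16, adjusted p = 1.05e-06). The PI3K, mTOR and FOXO list as a whole had 9 of 43 members higher in ILC2 and 7 in NMUR1- cells. Of all genes these shares were 13.9% and 20.2%. Among protein kinase C relatives Prkd3 was higher in ILC2 (log2 difference of 2.85, SE 0.13, adjusted p = 6.18e-08), and Prkch and Prkca higher in NMUR1- cells (log2 differences of -1.41 and -1.64).

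**Figure D4:**
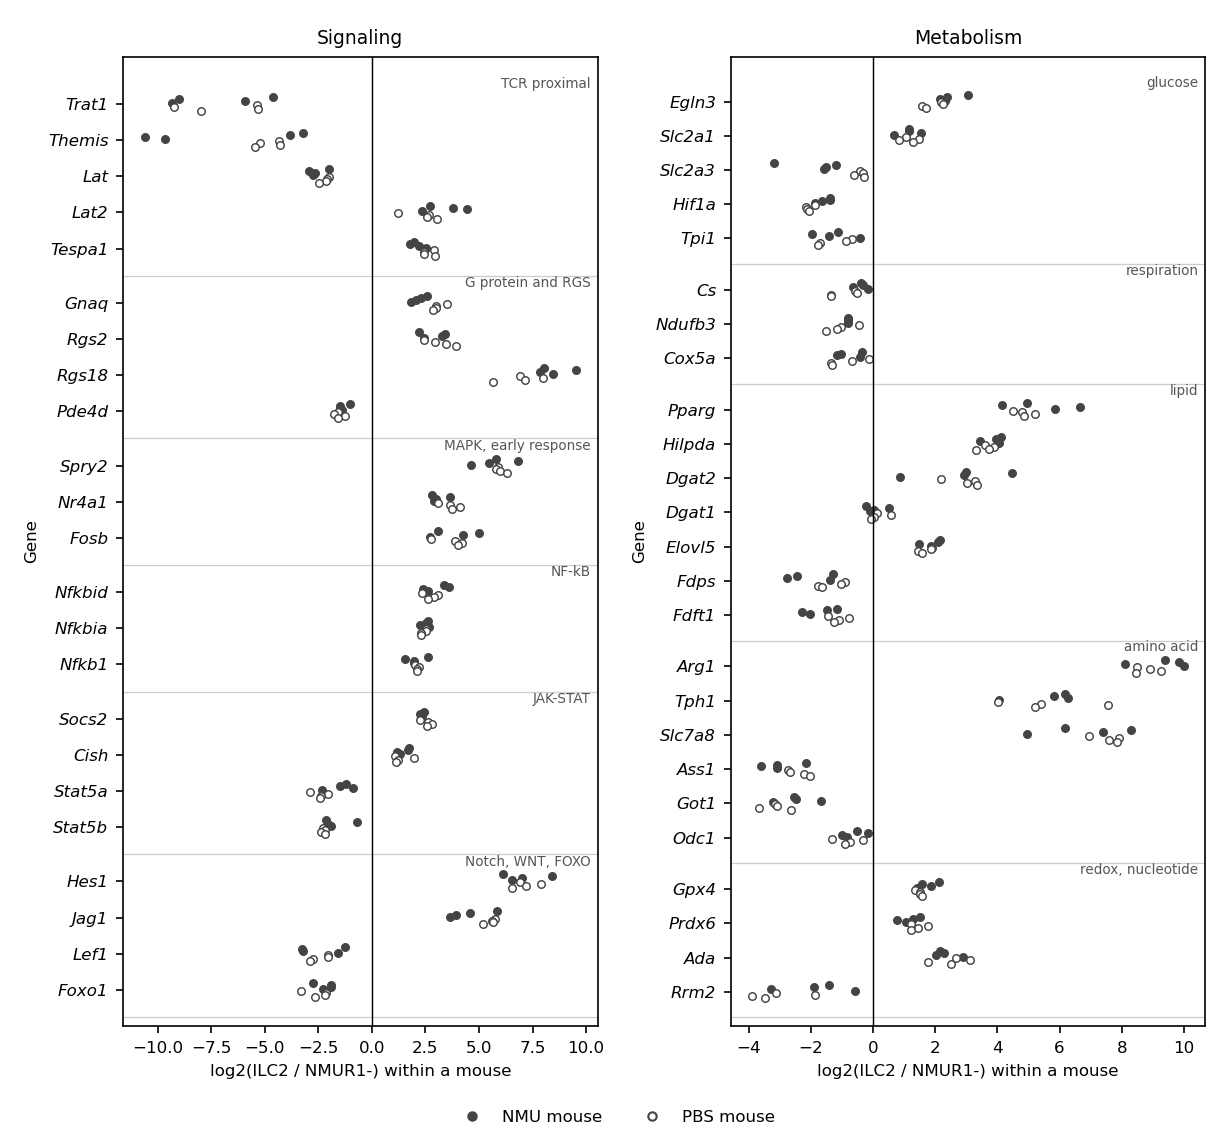
Differences between the ILC2 and the NMUR1- library of each mouse, as log2 of normalised counts with 2 counts added, for signaling genes (left) and metabolic genes (right). Filled points are the 4 NMU mice and open points the 4 PBS mice. Except for Dgat1, every gene shown has all 8 mice on 1 side of 0.

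Genes of glucose breakdown were lower in ILC2 in 12 of 30 cases and higher in 2, with a median log2 difference of -0.50. Hif1a, the oxygen-regulated factor that drives glycolysis, was at 298, 494 and 709.7 CPM in ILC2 and 1319, 1759 and 2153 CPM in NMUR1- cells (log2 difference of -1.80, SE 0.11, adjusted p = 5.69e-07). Egln3, a prolyl hydroxylase that marks HIF for removal, ran the other way at 159, 228 and 398 CPM against 40.9, 52.8 and 57 CPM (log2 difference of 2.21, SE 0.15, adjusted p = 1.21e-06). The glucose transporters split: Slc2a1 (GLUT1) was higher in ILC2 (127, 157 and 192 CPM against 60.1, 72.3 and 82.1 CPM, log2 difference of 1.15, SE 0.12, adjusted p = 2.11e-05) and Slc2a3 (GLUT3) lower (23.6, 108 and 176 CPM against 156, 196 and 281 CPM, log2 difference of -1.10, SE 0.30, adjusted p = 0.0159). Mouse 1 had the lowest difference for Slc2a3. The enzymes Tpi1 and Pgk1 were lower in ILC2 (log2 differences of -1.24 and -1.03, adjusted p = 0.000299 and 0.000326, edgeR). The hexokinase genes Hk1 and Hk2 and the lactate dehydrogenase gene Ldha did not pass (0.28, -0.14 and 0.13).

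Respiratory chain genes that were called were mostly lower in ILC2, by a small amount. Of 73 nuclear oxidative phosphorylation genes tested, 32 were lower in ILC2, 1 was higher and 40 did not pass. None passed the 2-fold rule, and the median log2 difference was -0.39 against -0.21 for all genes. Within single mice the median of the list ran from -0.80 to 0.025. Cox5a, a subunit of cytochrome c oxidase, was at 109, 163 and 189 CPM in ILC2 and 206, 254 and 416 CPM in NMUR1- cells (log2 difference of -0.81, SE 0.15, adjusted p = 0.00199). Ndufb3 of complex I was at 11.5, 16.5 and 26.7 CPM and 23.2, 33.2 and 46.8 CPM (log2 difference of -0.93, SE 0.17, adjusted p = 0.00163). The number of members lower in ILC2 ranged from 2 to 47 over the alternatives, fewest in the NMU mice alone. In the citrate cycle list 9 of 34 genes were lower and 2 higher, beside 20.2% and 13.9% of all genes. Cs, citrate synthase, had a log2 difference of -0.66 and Idh3a -0.72, while Mdh1 was slightly higher (0.31). Of 8 genes of the mitochondrial genome tested, CYTB was lower (log2 difference of -0.27) and 7 did not pass.

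Lipid genes split by pathway. Those of fatty acid uptake, storage and oxidation held 3 genes past the 2-fold rule, all toward ILC2. Hilpda, a lipid droplet protein that blocks triglyceride breakdown, was at 2012, 2397 and 3134 CPM in ILC2 and 150.2, 181.3 and 241 CPM in NMUR1- cells (log2 difference of 3.77, SE 0.12, adjusted p = 2.94e-09). Dgat2, which makes triglyceride, was at 70, 184 and 229.8 CPM and 8.55, 21.8 and 39.7 CPM (log2 difference of 2.91, SE 0.33, adjusted p = 7.43e-05), while Dgat1, the other enzyme of that step, did not pass at 299, 381 and 501 CPM and 208, 376 and 506 CPM. Pparg, the nuclear receptor of fat storage, was at 32.3, 47 and 72.7 CPM and 0.393, 1.37 and 2.07 CPM (log2 difference of 5.25, SE 0.33, adjusted p = 5.94e-07). Of the 44 members tested, 9 were higher in ILC2, 5 lower and 30 did not pass, so the list as a whole stood near 0 (0.034). Of all genes, 13.9% were higher and 20.2% lower. Cpt2, a carnitine enzyme of fat burning, was lower in ILC2 (log2 difference of -1.48, SE 0.33, adjusted p = 0.00548).

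Synthesis of sterols and fatty acids was lower in ILC2 for 14 of 41 genes and higher for 5 (median log2 difference of -0.62). Fdps and Fdft1, consecutive enzymes toward squalene, were at 16.3, 27.7 and 59.1 CPM against 60.8, 82.4 and 136 CPM and 13.1, 22.5 and 39.1 CPM against 47.7, 57.2 and 78.6 CPM (log2 differences of -1.65 and -1.44). Scd1, which desaturates stearate, had a median of 0.0889 CPM in ILC2 and 25.6 in NMUR1- cells (log2 difference of -5.58, SE 1.14, adjusted p = 0.00387). Cyp51, a later step of the same sterol pathway, was higher in ILC2 at 308, 517 and 682.8 CPM against 138, 178 and 222 CPM (log2 difference of 1.42, SE 0.15, adjusted p = 2.91e-05), and so was Elovl5, which lengthens polyunsaturated fatty acids (998, 1416 and 1562 CPM against 348, 379.8 and 416 CPM, log2 difference of 1.80, SE 0.10, adjusted p = 3.25e-07). The sterol pathway thus had members on both sides.

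Amino acid genes were called in both directions. Of the arginine, polyamine and tryptophan list 4 of 23 were higher in ILC2 and 5 in NMUR1- cells, shares close to the 13.9% and 20.2% of all genes. In the transport, serine and one-carbon list 8 of 44 were higher in ILC2 and 13 in NMUR1- cells. Arg1, the arginase of ILC2 and repair macrophages, was at 293, 399 and 551 CPM in ILC2 and 0.35, 0.553 and 1.34 CPM in NMUR1- cells (log2 difference of 9.28, SE 0.28, adjusted p = 2.94e-09), while Arg2 did not pass (-1.22, SE 0.97). Arg1 is also a macrophage gene. The summed level of 18 macrophage, monocyte and dendritic cell genes was 2523 to 9563 CPM in ILC2 and 2708 to 6876 in NMUR1- libraries, higher in ILC2 in 5 of 8 mice (exact sign-flip permutation p = 0.844). Most of that sum was Cd74, the class II invariant chain, with medians of 2703 and 2459 CPM. Lyz2, Csf1r, Cd14, Cd68, C1qa, C1qb and C1qc did not pass, with log2 differences of -1.86 to -0.88, and the median of the list was -1.41. The part of such cells in the Arg1 difference was not tested. Tph1, which makes the serotonin precursor, was at 11.4, 26.1 and 66.7 CPM and 0, 0.41 and 1.23 CPM (log2 difference of 5.97, SE 0.60, adjusted p = 2.12e-05). Slc7a8, a carrier of large neutral amino acids such as tryptophan, was at 67, 203 and 371 CPM and 0.345, 1.24 and 2.66 CPM (log2 difference of 7.29, SE 0.40, adjusted p = 4.47e-07). Ass1, which rebuilds arginine from citrulline, was lower in ILC2 (6.27, 14.5 and 25.7 CPM against 78.5, 93.6 and 109 CPM, log2 difference of -2.70, SE 0.20, adjusted p = 1.82e-06). Got1, the cytosolic aspartate aminotransferase, was at 45.9, 97.1 and 152 CPM and 473, 642 and 987 CPM (log2 difference of -2.81, SE 0.20, adjusted p = 1.32e-06). Odc1, the enzyme that takes ornithine into polyamines, was lower in ILC2 by less than 2-fold (-0.72), and Sat1, which breaks polyamines down, slightly higher (0.40). Atf4 and Glul, a stress factor of amino acid shortage and glutamine synthetase, were higher in ILC2 (log2 differences of 1.42 and 1.33).

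Redox genes had 6 of 36 members higher in ILC2 and 7 in NMUR1- cells, shares close to the 13.9% and 20.2% of all genes. Nucleotide, NAD and iron genes had 8 and 13 of 41. Gpx4, which protects membrane lipids from peroxidation, was at 268, 351 and 563 CPM in ILC2 and 90.6, 109.7 and 139.6 CPM in NMUR1- cells (log2 difference of 1.62, SE 0.10, adjusted p = 5.91e-07), whereas Gpx1, the main cytosolic peroxidase of that family, was lower (227, 252 and 290.3 CPM against 453, 474 and 511 CPM, log2 difference of -0.90). Prdx6 was higher and Prdx1 lower in ILC2 (1.29 and -0.71). Ada, which clears adenosine, was at 72.4, 109 and 161 CPM and 14.6, 19 and 25.8 CPM (log2 difference of 2.44, SE 0.17, adjusted p = 1.15e-06), and Entpd1 (CD39), which starts adenosine production from ATP, was lower in ILC2 (log2 difference of -4.07, SE 1.28, adjusted p = 0.0396, edgeR). The Entpd1 call was lost without any 1 of mice 1, 2, 3, 4 and 7 and without the count filter. Rrm2, a ribonucleotide reductase subunit of dividing cells, was at 19.4, 63.3 and 128 CPM and 169.7, 349 and 804 CPM (log2 difference of -2.45, SE 0.38, adjusted p = 0.000893).

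Of 19 retinoid, steroid, vitamin D and aryl hydrocarbon genes tested, 7 were higher in ILC2 and 2 in NMUR1- cells. They included Tiparp, a target of the aryl hydrocarbon receptor, at 902, 1862 and 2112 CPM in ILC2 and 141, 199.8 and 302 CPM in NMUR1- cells (log2 difference of 3.09, SE 0.16, adjusted p = 1.75e-07). Nr3c1, the glucocorticoid receptor, was higher in ILC2 (1099, 1692 and 2364 CPM against 262, 537 and 863 CPM, log2 difference of 1.78, SE 0.25, adjusted p = 0.000383), and Hsd11b1, which activates glucocorticoid inside cells, was lower (50.1, 77.8 and 115 CPM against 153, 200.1 and 438 CPM, log2 difference of -1.57, SE 0.18, adjusted p = 6.19e-05). Of 77 cytosolic ribosomal protein genes 21 were higher in ILC2 and 0 lower, all by less than 2-fold, with a median log2 difference of 0.19. The number higher in ILC2 ranged from 1 to 33 over the alternatives. Many of these have processed pseudogene copies to which the counting could have given their reads.

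Whether the lineage difference depended on treatment was asked with the population-by-treatment interaction. No gene passed (0 of 12924, 0.0%, smallest adjusted p = 0.057, 968 genes at an unadjusted p under 0.05, edgeR), while DESeq2 called 270 genes and limma voom 1. Taken alone, the 4 NMU mice gave 1382 called genes and the 4 PBS mice 2846. Of the genes called in both, 1120 had the same sign and 2 the opposite sign. Irf4, 1 of the latter, Stx11 and Tnfrsf4 had the 3 smallest interaction p-values and were chosen after their values were seen. Irf4, a factor induced by antigen receptor and alarm signals, was at 181.2 to 246 CPM in ILC2 of NMU mice and at 40 to 65.6 in ILC2 of PBS mice. NMUR1- cells were at 88.8 to 132 and 85.1 to 131 CPM. ILC2 therefore lay above their T cell partners in all NMU mice (log2 difference of 0.94, adjusted p = 0.0166, edgeR) and below them in all PBS mice (-1.10, adjusted p = 0.00691), an interaction of 2.04 (SE 0.26, adjusted p = 0.057) that missed the threshold. Tnfrsf4 was lower in ILC2 under both treatments, by less in NMU mice (-4.79 against -6.85), and Stx11, which cytotoxic granules need for release, was called in PBS mice alone (-2.14, against -0.50, adjusted p = 0.0563, in NMU mice, edgeR).

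**Figure D5:**
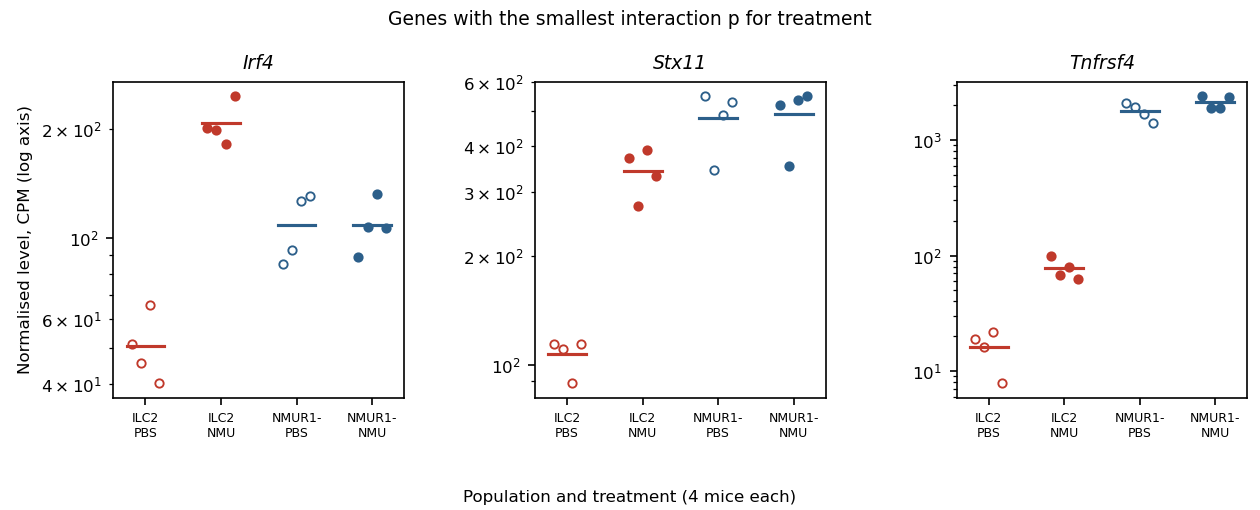
CPM on a log axis of Irf4, Stx11 and Tnfrsf4 in the 4 groups of population and treatment, with 1 point per mouse and bars at the mean of 4. Irf4 of ILC2 lay above all T cell libraries in NMU mice and below them in PBS mice, and the Irf4 levels of T cells overlapped between treatments.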

How the data were processed

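RNA of sorted cells was prepared with a low-input kit, per the labels' protocols. The deposited values are raw read counts per gene, which the authors made with STAR 2.5.3 on mm10, per the submitters' processing notes. Neither the counting program nor its annotation and strand setting is given in the sources used here. Of 27179 identifiers, 25275 (93.0%) matched a symbol in a RefSeq table of GRCm38.p6, and those without one held 1.00% of counts.

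The 16 libraries were fitted with edgeR 4.0.16 in R 4.3.3 (filterByExpr with a minimum count of 10, TMM scaling, robust quasi-likelihood fit, mouse as a block). Adjusted p-values are by Benjamini-Hochberg over the 12924 genes tested, and 0.05 was the threshold. A second rule, glmTreat, asked for a difference above 2-fold, and an interaction term for treatment. SE is the size of the log2 difference divided by the square root of the F statistic. Pairing comes from the labels, which give both populations of a mouse its number: deviations of same-mouse libraries correlated at 0.015 to 0.233, and 6 of 8 ILC2 libraries correlated best with their own mouse. Differences per mouse used log2 CPM with 2 counts added. Single values per library were compared by an exact sign-flip permutation test. The 8 mice are separate animals.

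Named genes were the sort genes, up to 4 genes per list and direction by size (called, the same sign in all 8 mice, and 10 CPM or more on average where higher), up to 10 genes per direction among all genes, the 2 most abundant genes per list that did not pass, and pairs of related genes. Where a gene had 0 counts in a group, folds are bounds against 3 counts over that group. The members and lists were chosen with earlier results of these data known. On simulated counts for the lineage comparison of 12924 genes, the fit recovered 34% of genes changed by a log2 of 1 and 57% by a log2 of 2, with 4.21% false calls. The interaction fit recovered 1% and 28%, with 9.38% false calls. Each simulation changed 100 genes at each size, a far smaller share than was called between the populations. The percentages recovered therefore need not hold for these data. There were 17 alternatives, with DESeq2 1.42.0 and limma 3.58.1 (voom) among them. NMUR1+ libraries were not used here except in the alternative with all 24. Some genes that the rule selects and 1 gene list are not reported here.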

Additional observations from a re-analysis of the deposited data

Results flagged for a closer look

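Of 192 named genes and library measures checked over the mice, 9 had 1 mouse far from the others, a share near the 1 in 20 that chance gives. In 8 genes the ILC2 minus NMUR1- difference of 1 mouse stood apart from those of the other 7 mice by more than Dixon's 95% value. Mouse 1, whose ILC2 library had the fewest genes detected, was that mouse for Cd3e (-12.31 on the log2 scale, others -8.68 to -6.32) and Slc2a3 (-3.19). Mouse 2 stood apart for Il23r (-0.69) and Stat5b (-0.69), mouse 3 for Runx3 (1.55), mouse 6 for Ptprc (-1.15), mouse 7 for Cd5 (-7.12, others -11.68 to -9.58) and mouse 8 for Ccr6 (-6.38). All 8 genes had the same sign in that mouse as in the fit over all mice. The NMUR1- library of mouse 8 stood apart by its total count of 17850000 to 4 digits, the highest of the 8.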

How the results depend on the processing

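Without mouse as a replicate block, 5038 genes were called instead of 4406, and no gene named as different lost its call. The NMU mice alone gave 1382 genes (737 higher in ILC2, 645 in NMUR1- cells) and the PBS mice alone 2846 (1396 and 1450). Past 2-fold these were 470 (298 and 172) and 858, with 368 higher in NMUR1- cells in PBS mice, against 1301 (582 and 719) in all mice. These fits hold 4 of the 8 mice. Leaving out 1 mouse gave 3707 to 4374 genes. The interaction, with 0 genes called, gave 24 without the block, 5 without the count filter, 3 without immunoglobulin genes, 270 with DESeq2, 1 with limma voom and 0 to 2 with 1 mouse left out, and the cause was not tested. Of 165 named genes that were called, 20 lost their call in the NMU mice alone and 11 in the PBS mice alone, and none reversed. Leaving out a mouse ended the calls of Entpd1 (mouse 1, 2, 3, 4 or 7), Il6ra (mouse 2, log2 difference of -2.98) and Traf5 (mouse 6, -2.70). Dropping the count filter also ended that of Entpd1 (-4.10). Some named genes that had not passed were called under an alternative. With DESeq2 these were Il2rb, Ptger4, Sh2d2a, Lta4h and Id3 (adjusted p = 0.022, 0.0377, 0.0333, 0.0198 and 0.032). All of them but Id3 were also called with limma voom. Hk1 was called without the block, and Notch1 in the PBS mice alone. Signs turned only for genes that had not passed: Tnfrsf9 in NMU mice (0.076), Hk1 (-0.042) and Hk2 (0.089) in PBS mice, and Irf4 in NMU mice (0.94), with all 24 libraries (0.029) and with limma voom (0.057). Ptgs1 was at 0.44 without the block, 0.074 with all 24 libraries, 0.40 in PBS mice and 0.38 with limma voom. With 1 mouse left out, Hk2 ran from -0.30 to 0.082, Irf4 from -0.28 to 0.15, and Ptgs1 from -0.35 to 0.34. The median of all genes was -0.21, -0.47 without the filter, -0.085 without the block and -0.10 in PBS mice. Of 43 list medians 33 kept their sign under every alternative, and none changed it with DESeq2 size factors. Depth limits genes near 0 counts, where folds are bounds.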

Other observations

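Genes of other lymphocytes, chosen here after their values were seen, differed within their lists in both directions. Of the 14 genes listed for CD8, gamma-delta and NK cells, 4 were higher in ILC2 and 6 in NMUR1- cells. Of all genes tested, these shares were 13.9% and 20.2%. Trgc4 and Trgc1, constant segments of the T cell receptor gamma locus, had medians of 319.5 and 238.6 CPM in ILC2 and 2.06 and 15.7 CPM in NMUR1- cells (log2 differences of 7.37 and 4.12, adjusted p = 9.99e-08 and 2.46e-05, edgeR). Trgc2, also a segment of that locus, was lower in ILC2 (0.524 against 7.36 CPM, log2 difference of -3.90). These segments resemble one another, so that reads could be split between them, and reads over a constant segment do not show a rearranged receptor. Gzmb, the gene for granzyme B, had a median of 15.4 CPM in ILC2 and 730.4 CPM in NMUR1- cells (log2 difference of -5.46), whereas Prf1, the gene for perforin, was higher in ILC2 (30.8 against 11.3 CPM, log2 difference of 1.49, adjusted p = 0.034).

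Of 18 macrophage, monocyte and dendritic cell genes tested, 2 were higher in ILC2 (Zbtb46 and Xcr1), 1 was lower (Itgam, log2 difference of -6.63, adjusted p = 0.00944, edgeR) and 15 did not pass, beside 13.9% of all genes higher and 20.2% lower. Zbtb46, a transcription factor of dendritic cells, had medians of 88.1 and 19.9 CPM (log2 difference of 2.11), and Xcr1, a chemokine receptor of dendritic cells, 49.0 and 18.0 CPM (1.45). Flt3, a growth factor receptor of dendritic cells, had a median of 0 in ILC2 and 0.792 CPM in NMUR1- cells. Of 13 B and plasma cell genes tested, 7 were lower in ILC2, 1 was higher and 5 did not pass. Pax5 had 0 counts in ILC2, Ms4a1 had medians of 0.0505 and 16.3 CPM, and Cd79b was the gene that was higher (62.8 against 38.0 CPM, log2 difference of 0.84, adjusted p = 0.00797, edgeR). The plasma cell gene Jchain did not pass (adjusted p = 0.802, edgeR), with 7.28 to 16840 CPM in ILC2 and 133.0 to 10450 CPM in NMUR1- libraries. The summed levels of 5 lists did not pass (exact sign-flip permutation tests): 0 to 403.1 CPM in ILC2 and 1.61 to 48.6 in NMUR1- cells for neutrophils (p = 0.758), 28.2 to 79.5 and 7.14 to 257.7 for epithelium (p = 0.266), 30.9 to 519.3 and 139.4 to 382.7 for fibroblasts and endothelium (p = 0.109), 413.5 to 1917 and 619.2 to 1313 for CD8, gamma-delta and NK cells (p = 0.648), and 990.1 to 18290 and 1212 to 12130 for B and plasma cells (p = 0.836). Abundant genes weigh most in such sums, which do not show equal numbers of these cells. Pecam1 had medians of 71.5 and 139 CPM, where the fibroblast and endothelium sums had 106 and 230. Jchain and Xbp1 made up most of the B and plasma cell sums. In the CD8, gamma-delta and NK sum, Gzmb and the segments Trgc1 and Trgc4 differed in opposite directions.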
